A study of Mus musculus with 8 samples.

Results

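The 9 genes described here encode the transcription factors that hold T lymphocytes in the resting state: Satb1, Tcf7, Lef1, Foxp1, Bach2, Klf2, Klf3, Foxo1 and Foxo3. They were taken by gene symbol from the 22432 rows of the deposited expression table. The symbols were chosen with earlier results of these data known, so the choice is not independent of the measured values. All 9 were in the table, and all 9 passed the filter that left 13797 genes for testing. The study measured RNA from mouse regulatory T (Treg) cells that lacked 1 or both genes of the alternative NF-kB pathway, with 4 genotypes and 2 libraries in each. The strain was C57Bl/6, and cells carrying Foxp3-CRE-YFP were sorted after spleen and lymph nodes had been combined. WT cells carried Foxp3-CRE-YFP alone, RelB-KO cells also carried RelB F/F, Nfkb2-KO cells carried nfkb2 F/F, and DKO cells carried both floxed alleles. The Cre is expressed under Foxp3, so each deletion follows the onset of Foxp3 expression and every group, WT included, carries the Cre. Before RNA was taken, every group was cultured for 16 h on plates coated with antibody to CD3 (5 µg/ml), with soluble antibody to CD28 (1 µg/ml), an agonist antibody to OX40 (2 µg/ml) and mouse IL-2 (10 ng/ml). These are levels of resting-state genes in activated cells, and unstimulated cells were not analysed here. The labels give no age or sex of the mice. The labels do not say whether replicates came from separate animals, so p-values measure only the spread between these libraries.

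Resting T cells keep a set of transcription factors that hold them small, long-lived and able to recirculate through lymph nodes, and antigen receptor signalling lowers or inactivates many of these factors. Foxo1 and Foxo3 are retained in the cytoplasm once the kinase AKT phosphorylates them, and Foxo1 activates Klf2, which in turn drives homing receptors such as S1pr1. In Treg cells several of the factors also take part in lineage function: SATB1 helps open Treg enhancers during development in the thymus, and FOXP1 binds many of the sites that FOXP3 binds. The alternative NF-kB pathway is switched on by receptors such as OX40. RelB is its main activating subunit, and the unprocessed product of Nfkb2 both holds RelB in the cytoplasm and is the source of RelB's partner.

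Both deletions were visible in the RNA. Relb lay at 6.35 to 7.08 in the 4 RelB-deleted libraries against 10.49 to 10.84 in the other 4, and Nfkb2 at 8.75 to 9.85 in the 4 Nfkb2-deleted libraries against 12.31 to 12.80 (deposited log2 values). The remaining Nfkb2 RNA was not equal in the deleted genotypes, at 8.75 and 8.79 in Nfkb2-KO and at 9.29 and 9.85 in DKO, a difference of 0.80 (limma, adjusted p = 0.184, and 0.0379 with replicate number as a block). Against WT these levels gave -3.94 in Nfkb2-KO and -3.14 in DKO. The authors' deposited log2 fold changes of Nfkb2 were -2.33 and -1.97, which lie closer together, so the size of this difference depends on the source. Foxp3, the defining Treg gene, lay between 13.95 and 14.28, and all 8 listed Treg markers lay at 11.84 or above. The B cell gene Pax5, the macrophage gene Adgre1, the endothelial gene Cdh5 and the globin genes Hbb-bs, Hbb-bt and Hba-a1 were listed at 0 or absent, but other genes of the same marker lists were not, among them Cd79b (7.09 to 7.72), Cd68 (6.80 to 7.51) and Pecam1 (9.85 to 10.44). One library, WT replicate 1, stood apart in X- and Y-linked transcripts: its Xist level was 8.17, where the other 7 libraries lay between 14.6 and 15.1, and its Ddx3y level was 11.60, where they lay between 4.25 and 4.35. Calls against WT are therefore also given without it. Libraries with the same replicate number deviated together in every pair of genotypes. Each difference is therefore given from the planned limma model without a replicate term and, where the call differs, from the same model with replicate number as a block (written "with the block"). A gene counts as called where its p, adjusted by the Benjamini-Hochberg method over all 13797 genes, was below 0.05. A gene said to fall or rise with the block is one called in that fit. With all 8 libraries the difference itself is the same in both fits, and only its SE and p-value change. Values are log2 expression as deposited. Since their scale is not that of a length-normalised RPKM, the levels of the 9 genes are not compared with each other, and differences are compared only as log2 differences.

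Promoter sequence is shown for 4 of the 9 genes, as examples chosen after the matches were seen: Satb1 for the kappaB motif, and Foxp1, Tcf7 and Klf3 for motifs of the 9 factors themselves. The RefSeq table for GRCm38.p6 held 19 promoter windows for the 9 genes, each 300 bases long, from 250 before to 50 after an annotated start. Among them, 2 held a match to the kappaB consensus, the NF-kB binding motif, and both belonged to Satb1. In the first window the match begins at -135 and in the second at -176 from the start site. The consensus was found in 8.46% of all 32851 promoter windows, so a match is common. Below, each window is written 5′ to 3′ on the gene's own strand, and the capitals mark the kappaB match.
Satb1, chr17:51833241-51833540, minus strand: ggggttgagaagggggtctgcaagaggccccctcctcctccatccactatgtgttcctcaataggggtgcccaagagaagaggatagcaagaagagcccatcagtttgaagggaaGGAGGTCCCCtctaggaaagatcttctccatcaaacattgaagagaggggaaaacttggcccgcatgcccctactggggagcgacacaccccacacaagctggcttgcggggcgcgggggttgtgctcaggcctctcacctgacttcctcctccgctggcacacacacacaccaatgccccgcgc
Satb1, chr17:51832598-51832897, minus strand: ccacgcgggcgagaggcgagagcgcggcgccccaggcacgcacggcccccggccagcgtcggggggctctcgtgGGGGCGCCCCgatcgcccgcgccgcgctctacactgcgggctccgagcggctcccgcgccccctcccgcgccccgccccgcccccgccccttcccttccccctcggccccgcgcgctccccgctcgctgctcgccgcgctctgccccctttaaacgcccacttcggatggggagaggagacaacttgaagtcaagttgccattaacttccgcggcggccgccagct

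Motifs of the other factors were searched on both strands as exact letters, and none of the capitals shown here overlaps a match to another searched motif. The FOXO motif GTAAACA was in 3.65% of all windows and in 1 of the 19, a Tcf7 window where its first base is position 2 from the start. The TCF/LEF motif CTTTGTT was in 5.85% of all windows and in 4 of the 19, in Foxp1 and Satb1 (where the pair of windows overlaps), and its variant CTTTGAA in 5.14% of all and in 1, in Foxp1. The KLF motif CACCC was in 57.5% of all windows and in 14 of the 19, and the single Klf3 window held 5 matches. The first Lef1 window overlaps the next and holds the same KLF matches, and the overlapping Satb1 windows share one. The count of 14 therefore includes some sites more than once. A Foxp1 window, the Tcf7 window and the Klf3 window follow, with the TCF/LEF, FOXO and KLF matches in capitals. AACAAAG and GGGTG are the same motifs read on the other strand.
Foxp1, chr6:99520944-99521243, minus strand: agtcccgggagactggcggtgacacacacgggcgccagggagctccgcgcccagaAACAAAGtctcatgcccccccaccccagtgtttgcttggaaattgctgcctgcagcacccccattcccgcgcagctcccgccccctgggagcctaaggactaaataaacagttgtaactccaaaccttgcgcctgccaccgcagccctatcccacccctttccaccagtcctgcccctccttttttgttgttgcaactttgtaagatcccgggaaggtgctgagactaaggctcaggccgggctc
Tcf7, chr11:52282546-52282845, minus strand: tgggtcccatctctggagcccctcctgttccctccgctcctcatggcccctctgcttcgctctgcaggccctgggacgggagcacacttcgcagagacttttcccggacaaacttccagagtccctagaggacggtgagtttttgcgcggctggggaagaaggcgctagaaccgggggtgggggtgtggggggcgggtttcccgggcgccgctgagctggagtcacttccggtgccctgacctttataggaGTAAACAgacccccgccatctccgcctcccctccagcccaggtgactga
Klf3, chr5:64803271-64803570, plus strand: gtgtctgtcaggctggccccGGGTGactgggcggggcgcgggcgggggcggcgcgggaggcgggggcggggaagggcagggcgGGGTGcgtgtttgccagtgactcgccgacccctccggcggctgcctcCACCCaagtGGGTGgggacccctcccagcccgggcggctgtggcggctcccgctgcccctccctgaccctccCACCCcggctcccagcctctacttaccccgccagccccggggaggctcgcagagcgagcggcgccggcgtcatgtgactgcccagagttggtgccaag
These matches describe the letters of the windows, and binding was not measured.

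The genes were lowest, by mean, in cells lacking Nfkb2 alone, with Tcf7 as the exception. Against WT, 8 of the 9 genes had a negative difference in Nfkb2-KO cells, with a median of -0.51 against 0.00 over all 13797 genes. The chromatin organizer Satb1 was 2.42-fold lower, Foxp1 1.55-fold, Klf2 1.47-fold, Klf3 1.45-fold and Lef1 1.42-fold. Tcf7, which encodes the TCF-1 protein related to LEF1, did not follow, with a difference of 0.01 ± 0.16 (SE). For 7 of the 9 genes both Nfkb2-KO libraries lay below both WT libraries, a pattern found in 20.9% of all genes tested. The planned model called 0 of the 9 lower (0.0507% of all genes were called lower and 0.290% higher), while 5 of the 9 passed 0.05 before adjustment, as did 10.7% of all genes. With the block it called 3 lower, Satb1, Foxp1 and Klf3, where 1.00% of all genes were called lower and 1.91% higher. The authors' deposited table has adjusted p values under 0.05 for 5 of the 9, Satb1, Lef1, Foxp1, Klf2 and Klf3, all lower, against 2.73% of its genes. Without WT replicate 1, 1 gene was called with the block, Satb1, and 0 without it. The shares of all genes called without that library are not given, here or below. In bulk RNA such as this, fewer cells that express a gene and less of its RNA per cell cannot be told apart.

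Satb1, Foxp1 and Lef1 were higher when RelB was deleted together with Nfkb2 than when Nfkb2 was deleted alone. Between DKO and Nfkb2-KO cells 8 of the 9 differences were positive, with a median of 0.19 against 0.00 over all genes. Satb1 was called higher by the planned model (1 of 9, where 0.123% of all genes were called higher and 0.645% lower). With the block 3 were called higher, Satb1, Foxp1 and Lef1, where 2.07% of all genes were called higher and 2.96% lower. Both DKO libraries lay above both Nfkb2-KO libraries for 5 genes (17.4% of all genes) and below them for 1 gene, Tcf7 (17.8% of all genes). Against RelB-KO cells, Nfkb2-KO cells had 0 of 9 called lower by the planned model (0.138% of all genes lower, 0.660% higher), while 4 passed 0.05 before adjustment, as did 11.9% of all genes. With the block 4 were called lower, Satb1, Foxp1, Klf2 and Klf3, where 1.67% of all genes were called lower and 2.78% higher. Both Nfkb2-KO libraries lay below both RelB-KO libraries for 6 genes (21.1% of all genes). These comparisons share the Nfkb2-KO libraries, so their values are not independent. DKO also held more of the remaining Nfkb2 RNA than Nfkb2-KO (0.80, called with the block), and its part in the DKO minus Nfkb2-KO differences and in the interaction was not tested.

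None of the 9 genes was called in RelB-KO against WT, DKO against WT or DKO against RelB-KO, with or without the block. At an unadjusted p under 0.05, 0 of the 9 passed in each of the 3 comparisons without the block, and 0, 4 and 1 passed with it. The shares of all genes at that threshold were 1.24%, 5.18% and 2.88% without the block and 3.13%, 12.9% and 8.81% with it. Few genes of any kind were called: 0% higher and 0.00725% lower for RelB-KO against WT (0% and 0.0145% with the block), 0% and 0.0145% for DKO against WT (0.0145% and 0.0507% with the block), and 0% and 0.00725% for DKO against RelB-KO (0.00725% in each direction with the block). Libraries did not overlap for Tcf7 (lower; 11.0% of all genes) and Klf2 (higher; 9.63%) in RelB-KO against WT. In DKO against WT they did not overlap for Tcf7, Klf2 and Klf3 (lower; 17.6%) and for Satb1 (higher; 16.6%). In DKO against RelB-KO they did not overlap for Klf2, Klf3 and Foxo3 (lower; 14.3%) and for Satb1 (higher; 13.2%). At these shares such separations are common among all genes. The authors' deposited table calls 0 of the 9 in RelB-KO (0.0274% of its genes higher, 0.0912% lower) and 0 in DKO (0.593% higher, 0.639% lower).

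**Figure D1:**
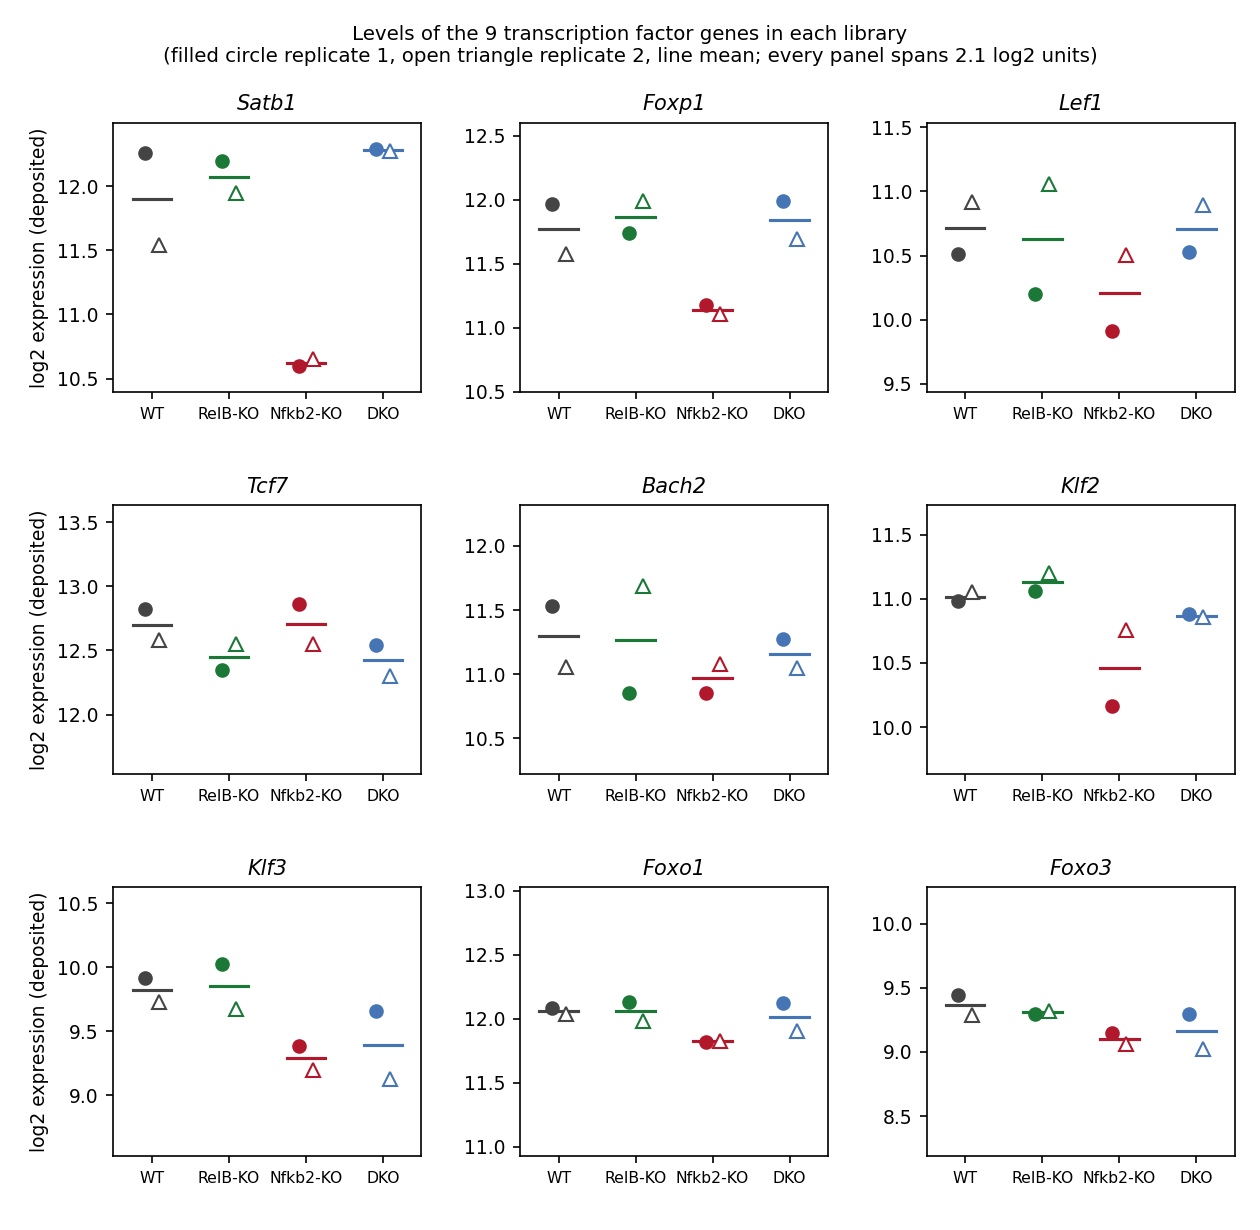
Deposited log2 expression of the 9 genes in each of the 8 libraries, with one panel per gene, genotypes on the x axis, filled circles for replicate 1, open triangles for replicate 2 and bars for the mean of both. Satb1 stands at 10.60 and 10.65 in Nfkb2-KO and at 11.55 or above in every other library, while Tcf7 shows no such step.

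Satb1 (chromosome 17, 51736187 to 51833290, minus strand, mm10 as for all coordinates) encodes a nuclear protein that folds chromatin into loops around T cell genes. It stood at 12.26 and 11.55 in WT replicates 1 and 2, at 12.20 and 11.94 in RelB-KO, at 10.60 and 10.65 in Nfkb2-KO and at 12.29 and 12.28 in DKO. Both Nfkb2-KO libraries were lower than all 6 others, and WT had the widest spread of the 4 genotypes. The order of the means was DKO, RelB-KO, WT, Nfkb2-KO, and RelB-KO and WT overlapped.

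Satb1 was lower in Nfkb2-KO than in WT by 1.66 in replicate 1 and by 0.89 in replicate 2, which gives -1.28 ± 0.22 (SE, adjusted p = 0.103) in the planned model. With the block the same difference was called, at -1.28 ± 0.16 (adjusted p = 0.00509). Without the block it passed the threshold only when WT replicate 2 was left out (-1.63, adjusted p = 0.0217). With the block it passed in all 8 fits that left out 1 library, at adjusted p from 0.000304 to 0.0381. Without WT replicate 1, the library that stands apart, the block gave -0.96 (adjusted p = 0.0093).

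From Nfkb2-KO to DKO Satb1 rose by 1.66 ± 0.22, a 3.16-fold difference (adjusted p = 0.0322), and the replicates gave 1.70 and 1.63. With the block the adjusted p was 0.000909. Without the block the call was lost when 1 of 6 libraries was left out: adjusted p = 0.0653 and 0.0657 without RelB-KO replicates 1 and 2, 0.205 and 0.133 without Nfkb2-KO replicates 1 and 2, and 0.148 and 0.222 without DKO replicates 1 and 2. The difference itself stayed between 1.63 and 1.69 in these fits, and with the block all 8 left-out fits passed (highest adjusted p = 0.0376). Against RelB-KO, Satb1 differed in Nfkb2-KO by -1.45 ± 0.22 (adjusted p = 0.0508) and Satb1 fell with the block (adjusted p = 0.00171). Without the block it was also called when WT replicate 1 or 2 was left out (adjusted p = 0.0168 and 0.0165).

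The contrast that asks whether deleting RelB acts differently with and without Nfkb2 was largest, of the 9 genes, for Satb1. With Nfkb2 intact, RelB-KO differed from WT by 0.17 ± 0.22, and the DKO minus Nfkb2-KO difference was 1.66. The interaction, the latter minus the former, was 1.49 ± 0.31 (adjusted p = 0.470) and passed the threshold with the block (SE 0.22, adjusted p = 0.0356), which called 1 of the 9 genes. Over all genes the interaction called 0% higher and 0.00725% lower without the block, and 0.116% higher and 0.355% lower with it. In fits with the block that left out 1 library the call was lost without either RelB-KO library, without Nfkb2-KO replicate 1 and without either DKO library, at adjusted p from 0.0648 to 0.263, and the value lay between 1.17 and 1.81 over all 8 such fits. Without WT replicate 1 it was 1.17 (adjusted p = 0.0265).

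**Figure D2:**
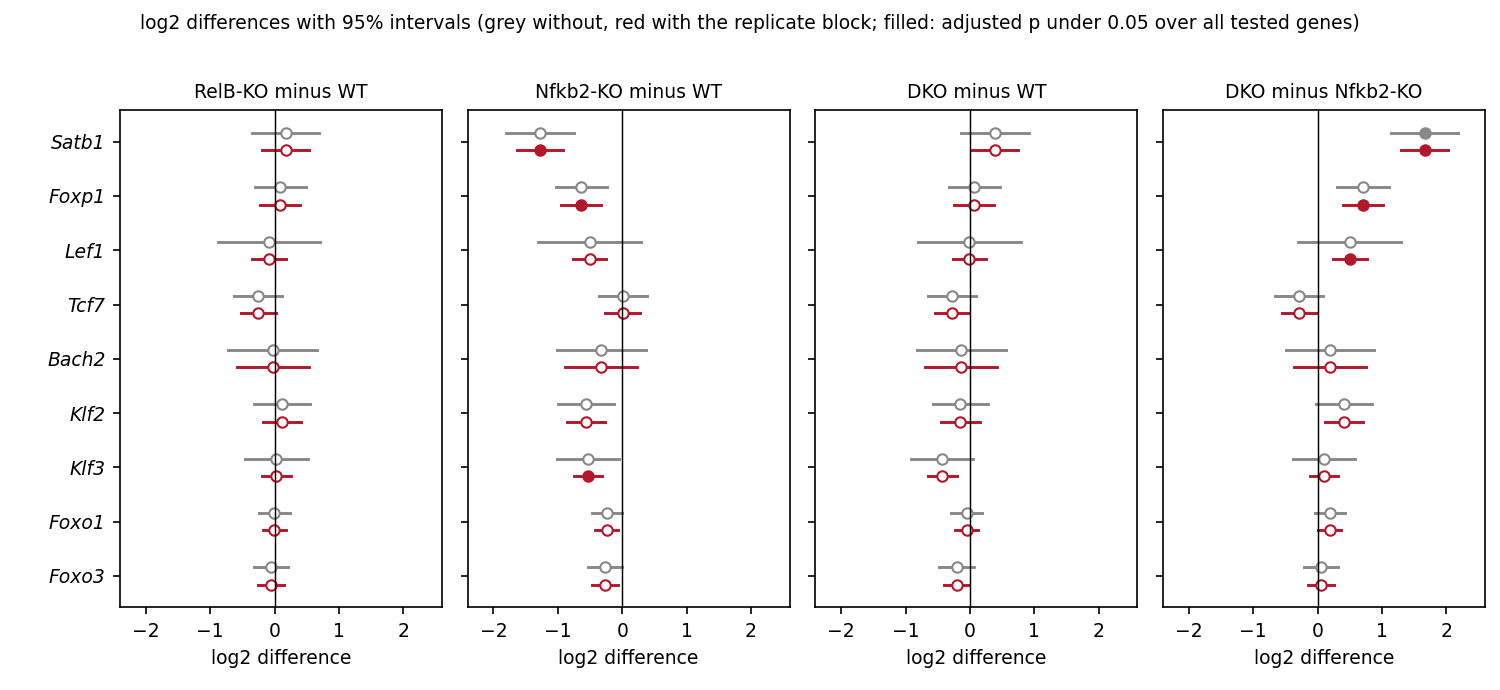
Log2 difference of each of the 9 genes in the comparisons between genotypes, with the 95% interval of the limma model without (grey) and with (red) the replicate block, filled where the gene is called. Satb1 lies at -1.28 in Nfkb2-KO against WT and at 1.66 in DKO against Nfkb2-KO, and Tcf7 lies near 0 in the first.

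Foxp1 (chromosome 6, 98925338 to 99522721, minus strand) encodes a forkhead repressor that keeps naive T cells quiescent. It stood at 11.97 and 11.58 in WT, 11.74 and 11.99 in RelB-KO, 11.17 and 11.10 in Nfkb2-KO and 11.99 and 11.69 in DKO. Both Nfkb2-KO libraries were below all 6 others, and the other 3 genotypes overlapped. The difference from WT was -0.64 ± 0.17 (adjusted p = 0.261), and with the block it fell (-0.64 ± 0.14, adjusted p = 0.0451). That call was lost in 5 of the 8 left-out fits with the block, at adjusted p = 0.170 without WT replicate 1, 0.248 and 0.145 without Nfkb2-KO replicates 1 and 2, and 0.0747 and 0.0746 without DKO replicates 1 and 2. DKO minus Nfkb2-KO gave 0.70 ± 0.17 (adjusted p = 0.162; 0.0210 with the block, lost at 0.124, 0.0842, 0.189 and 0.113 without Nfkb2-KO replicates 1 and 2 and DKO replicates 1 and 2). Against RelB-KO it was -0.73 ± 0.17 (adjusted p = 0.159; 0.0209 with the block, lost at 0.0998, 0.136 and 0.0732 without RelB-KO replicate 2 and Nfkb2-KO replicates 1 and 2).

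Lef1 and Tcf7 encode LEF1 and TCF-1, HMG-box partners of beta-catenin that maintain naive and memory T cells and overlap in function. Lef1 (chromosome 3, 131110471 to 131224356, plus strand) stood at 10.52 and 10.91 in WT, 10.20 and 11.06 in RelB-KO, 9.91 and 10.51 in Nfkb2-KO and 10.53 and 10.89 in DKO. Replicate 2 was higher than replicate 1 in all 4 genotypes, by 0.37 to 0.86, so levels are best read within a replicate number. Within replicate numbers Lef1 differed between Nfkb2-KO and WT by -0.61 and -0.41, a mean of -0.51 that was not called (adjusted p = 0.680; 0.0570 with the block). Of the 8 left-out fits with the block 2 called it, without RelB-KO replicate 1 or 2 (0.0190 and 0.0191), and over all 8 it lay between -0.61 and -0.40, at adjusted p up to 0.287.

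Lef1 in DKO differed from Nfkb2-KO by 0.50 ± 0.33 (adjusted p = 0.766) and Lef1 rose with the block (SE 0.12, adjusted p = 0.0442). The call was lost without any of the Nfkb2-KO or DKO libraries, at adjusted p = 0.228, 0.170, 0.286 and 0.119 in that order. Tcf7 (chromosome 11, 52252371 to 52283014, minus strand) stood at 12.82 and 12.58 in WT, 12.35 and 12.55 in RelB-KO, 12.87 and 12.55 in Nfkb2-KO and 12.54 and 12.30 in DKO. WT and Nfkb2-KO overlapped, and both lay above DKO in each replicate number. The Tcf7 difference between DKO and Nfkb2-KO was -0.28 ± 0.16 (adjusted p = 0.670; 0.275 with the block), opposite in sign to the other 8 genes.

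Bach2 (chromosome 4, 32238804 to 32586108, plus strand) encodes a repressor that limits effector differentiation and is needed for Treg homeostasis. It stood at 11.53 and 11.06 in WT, 10.85 and 11.69 in RelB-KO, 10.85 and 11.08 in Nfkb2-KO and 11.27 and 11.05 in DKO. The replicates of RelB-KO lay 0.84 apart, and no genotype stood clear of another. The difference between Nfkb2-KO and WT was -0.33 ± 0.29 (adjusted p = 0.780), from -0.68 in replicate 1 and 0.02 in replicate 2. At this spread its 95% interval reached from -1.02 to 0.36, which spans the Foxp1 value.

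**Figure D3:**
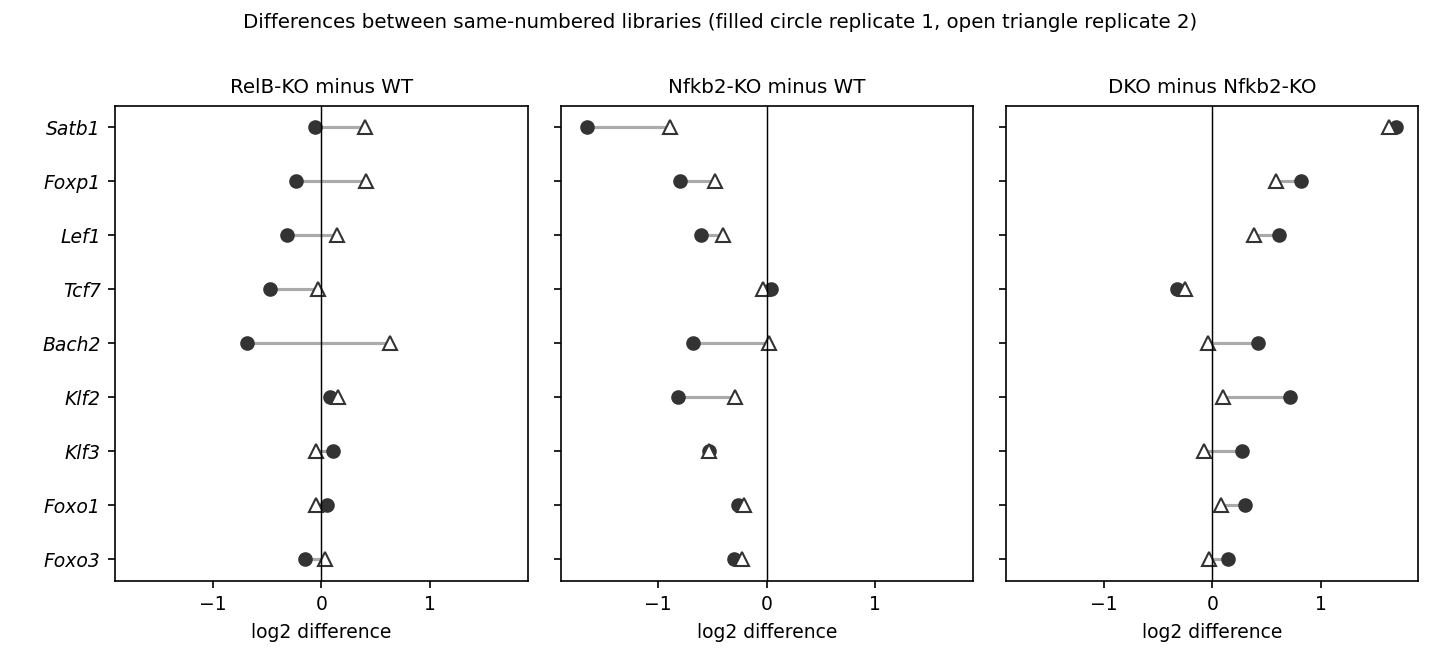
Log2 differences of the 9 genes between libraries with the same replicate number, in RelB-KO against WT, Nfkb2-KO against WT and DKO against Nfkb2-KO (filled circle replicate 1, open triangle replicate 2, joined by a line). In Nfkb2-KO against WT both points lie below 0 for 7 genes, as for 30.9% of all genes tested, and Klf3 has the closest pair at -0.53 in both. In RelB-KO against WT most pairs lie on both sides of 0. Of all genes tested, 21.3% were lower there in both replicate numbers and 22.4% were higher.

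Klf2 and Klf3 are zinc-finger factors of the Kruppel-like family, KLF2 an activator of homing receptor genes and KLF3 a repressor whose gene is a target of other Kruppel-like factors. Klf2 (chromosome 8, 72319033 to 72321656, plus strand) stood at 10.98 and 11.05 in WT, 11.06 and 11.20 in RelB-KO, 10.16 and 10.75 in Nfkb2-KO and 10.88 and 10.86 in DKO. Both Nfkb2-KO libraries lay below the other 6, although replicate 2 came close to DKO. The differences were -0.56 ± 0.18 from WT (adjusted p = 0.359; 0.0614 with the block) and -0.67 ± 0.18 from RelB-KO (adjusted p = 0.216), and only the latter was called with the block (0.0256). That call was lost without RelB-KO replicate 1 or 2 (0.117, 0.0955) and without Nfkb2-KO replicate 1 (0.135). Over the 8 left-out fits with the block the difference from WT lay between -0.82 and -0.29, at adjusted p from 0.00884 to 0.352. It was called in 1 of them, without Nfkb2-KO replicate 2, and was -0.29 without Nfkb2-KO replicate 1.

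Klf3 (chromosome 5, 64803388 to 64832901, plus strand) stood at 9.92 and 9.73 in WT, 10.03 and 9.68 in RelB-KO, 9.38 and 9.20 in Nfkb2-KO and 9.66 and 9.13 in DKO. Here DKO overlapped with Nfkb2-KO and not with WT. The difference between Nfkb2-KO and WT was -0.53 in both replicate numbers (SE 0.20, adjusted p = 0.424), and it fell with the block (SE 0.10, adjusted p = 0.0274). That call was lost without WT replicate 1 or 2 (adjusted p = 0.0596 and 0.137) and without Nfkb2-KO replicate 1 or 2 (0.225 and 0.0614). Against RelB-KO the difference was -0.56 (adjusted p = 0.342) and it fell with the block (0.0150). The latter call was lost without RelB-KO replicate 1 or 2 (0.0862, 0.0716) and without Nfkb2-KO replicate 1 (0.146).

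The DKO minus Nfkb2-KO difference of Klf3 was 0.10 ± 0.20, with a 95% interval from -0.38 to 0.59, and the DKO minus WT difference was -0.43 ± 0.20 (adjusted p = 0.861; 0.209 with the block). In the authors' deposited table the DKO value of Klf3 was -0.47 with an adjusted p of 0.0546. Foxo1 (chromosome 3, 52268336 to 52353221, plus strand) and Foxo3 (chromosome 10, 42181841 to 42276755, minus strand) had the smallest differences among the genes that were lower without overlap in Nfkb2-KO. Foxo1 stood at 12.09 and 12.04 in WT, 12.13 and 11.99 in RelB-KO, 11.82 and 11.83 in Nfkb2-KO and 12.13 and 11.90 in DKO. Its Nfkb2-KO libraries were below all others, by -0.24 ± 0.10 from WT (adjusted p = 0.467; 0.151 with the block).

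Foxo3 stood at 9.45 and 9.29 in WT, 9.30 and 9.32 in RelB-KO, 9.15 and 9.06 in Nfkb2-KO and 9.29 and 9.03 in DKO. Nfkb2-KO lay below WT and RelB-KO without overlap but overlapped with DKO. The difference from WT was -0.26 ± 0.11 (adjusted p = 0.473; 0.157 with the block). FOXO activity is set largely by protein location, which RNA levels do not show. Exons of Satb1, Lef1, Foxp1, Bach2, Klf3 and Foxo1 share bases with another annotated gene, an antisense one for all but Foxp1. For Satb1 and Foxp1 bases are also shared with a gene on the same strand. The labels do not say whether counting used strand, so reads of the partners may be included. Tcf7, Klf2 and Foxo3 share none.

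Genes that work beside these factors are described by counts and medians over pathway lists, which were also chosen with earlier results of these data known. For Nfkb2-KO against WT these counts stand beside 10.7% of all genes under 0.05 before adjustment without the block and 18.3% with it, and beside 1.00% of all genes called lower and 1.91% higher with the block. For DKO against Nfkb2-KO they stand beside 2.07% of all genes called higher and 2.96% lower with the block. Without the block these shares were 0.123% and 0.645%. Among 18 genes of resting T cell surface and signalling, the median difference between Nfkb2-KO and WT was -0.45, and 15 were negative. The planned model called 1 lower, Il6ra, the IL-6 receptor alpha chain (-1.24 ± 0.11, adjusted p = 0.0214). With the block 4 fell: Il6ra, Itga6, an integrin chain (-0.54), Cd27, a costimulatory receptor (-0.45), and Arl4c, which falls outside the rule for named genes and was chosen after its values were seen. Il7r, the IL-7 receptor and a FOXO1 target, went the other way and rose with the block (0.72 ± 0.13, adjusted p = 0.0279), from 11.39 and 11.29 in WT to 12.35 and 11.78 in Nfkb2-KO. From Nfkb2-KO to DKO the median was 0.21, and with the block 3 genes rose, Igfbp4 (1.79) and Il6ra (1.09) among them, and Il7r fell (-0.79). Il6ra was also called there by the planned model (adjusted p = 0.0158). Without WT replicate 1, Il6ra was the one gene of the list still called in Nfkb2-KO against WT, with the block, and the median was -0.33, or -0.29 with the block.

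Antiproliferative quiescence genes had a smaller median difference in Nfkb2-KO against WT. Of 18 tested, 15 were negative in Nfkb2-KO against WT (median -0.14), the planned model called 0 (6 before adjustment), and with the block 2 fell, Slfn1 (-0.83 ± 0.11), whose product restrains T cell growth, and Zfp36l2 (-0.55 ± 0.08), an RNA-binding protein that destabilises mRNAs. In DKO against Nfkb2-KO the planned model also called 0, and with the block Zfp36l2 rose (0.53) and Btg1, an antiproliferative factor, fell (-0.59). Of 16 FOXO target genes, 11 were negative in Nfkb2-KO (median -0.44). The planned model called 0 (9 before adjustment, beside 10.7% of all genes), and with the block Bcl2l11, the pro-apoptotic BIM (-0.94), Bcl6, a transcriptional repressor (-0.86), and Ccng2, cyclin G2 (-0.59), fell and Il7r rose. Without WT replicate 1, Bcl2l11 and Il7r were no longer called with the block, Slfn1, Zfp36l2, Bcl6 and Ccng2 still were, and Cdkn1b and Ypel3, named after their values were seen, were called lower as well. The 17 regulators of FOXO and of PI3K-AKT signalling had a median of -0.03, with 0 called in either fit (2 before adjustment without the block and 4 with it). In DKO against Nfkb2-KO 1 of these fell with the block, Phlpp1 (-0.59), a phosphatase that acts on AKT.

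Transcription factors related to the 9, and others of resting T cells, had medians closer to 0 in Nfkb2-KO against WT. Among 16 tested paralogs the median was -0.11, the planned model called 0 (3 before adjustment) and 1 fell with the block, Klf13 (-0.32 ± 0.07, adjusted p = 0.0433), a call that was lost without WT replicate 1, when Klf12 was called lower instead. Among 18 other resting T cell factors, such as Ets1, Bcl11b and Ikzf1, the median was -0.05 and 0 were called in either fit (0 before adjustment without the block and 1 with it), with the largest differences at -0.20 for Zeb1 and Ets1. Activation and effector transcription factors had the opposite sign: 16 of 20 were positive (median 0.22), the planned model called 0 (6 before adjustment, beside 10.7% of all genes) and 5 rose with the block (1.91% of all genes). Among these were Bhlhe40 (1.17 ± 0.11), Jun (0.81 ± 0.16), Irf4 (0.56 ± 0.11) and Junb, the last named after its values were seen. From Nfkb2-KO to DKO the median was -0.30, with 5 called lower with the block, among them Bhlhe40 (-1.77) and Nr4a2 (-1.05), and 2 higher, Maf (0.82) and Prdm1. Of 14 genes that BACH2 is known to repress, the median was 0.14 in Nfkb2-KO, and with the block Gadd45g (0.69) and Irf4 rose and Gzmb (-1.49) fell, while the planned model called 0 (3 before adjustment). In DKO against Nfkb2-KO that list had a median of 0.21, and with the block Gzmb (1.87), Klrg1 (1.23) and Prdm1 (0.65) rose and Gadd45g (-0.74) fell. In RelB-KO against WT and in DKO against WT, 0 genes of these 8 lists were called in either fit with all 8 libraries. In DKO against WT the antiproliferative genes had a median of -0.24 (17 of 18 negative) and the BACH2 list 0.23 (12 of 14 positive). Before adjustment 3 of each passed 0.05 without the block, and 10 and 7 with it, beside 5.18% and 12.9% of all genes. The remaining lists had medians from -0.19 (FOXO targets) to -0.001 (other resting T cell factors). Without WT replicate 1 the antiproliferative and BACH2 medians there were -0.20 and 0.09 (-0.24 and 0.21 with the block). Without WT replicate 1 the BACH2 list's median in Nfkb2-KO was 0.01 (-0.05 with the block), its 3 calls with the block stood, and 4 activation factors were called higher with the block, Bhlhe40 and Irf4 among them but neither Jun nor Junb.

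**Figure D4:**
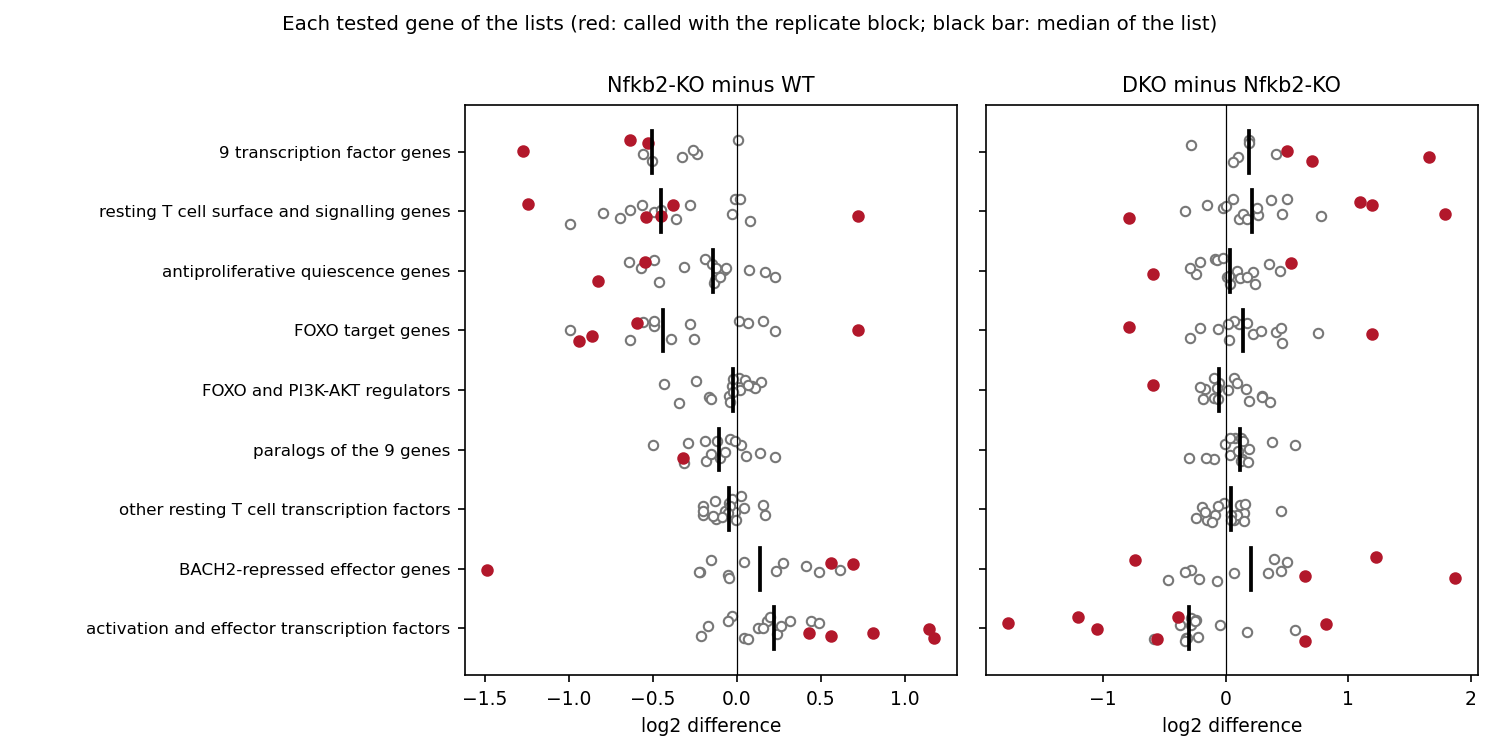
Log2 differences of the genes of each list in Nfkb2-KO against WT and DKO against Nfkb2-KO, with one point per gene (red where called with the block) and a bar at the list's median. The 9 transcription factor genes have medians of -0.51 and 0.19, and the activation and effector factors 0.22 and -0.30.

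Gene by gene, the profiles nearest to those of the called members were found over the 8 libraries after centring each gene within its replicate number. The measure is the root mean square difference, in log2 units, over the 13797 tested genes. For Satb1 the nearest were Itgb3, an integrin chain (0.18), Gzmb, the protease granzyme B (0.20), and Ikzf3, the factor Aiolos (0.22), against 0.66 for the size of the Satb1 profile itself. Foxp1 was the nearest of the 9 genes, at rank 30 (0.39). For Foxp1 the nearest were Pdk1 (0.04), Dapk1 and Lzts2 (0.07 each), and Lef1 stood at rank 9 (0.12). For Lef1 they were Gm12250, Pecam1 and Pitpnc1 (0.04, 0.06 and 0.06). For Klf2 they were Cd55, Pde1b and Pik3r1 (0.06 to 0.07), with Klf3 at rank 119, and for Klf3 they were 2810474O19Rik, Igf1r and Pyhin1 (0.05 to 0.06), with Klf2 at rank 275. All points share the same libraries, so the likeness is a description of these 8 profiles.

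**Figure D5:**
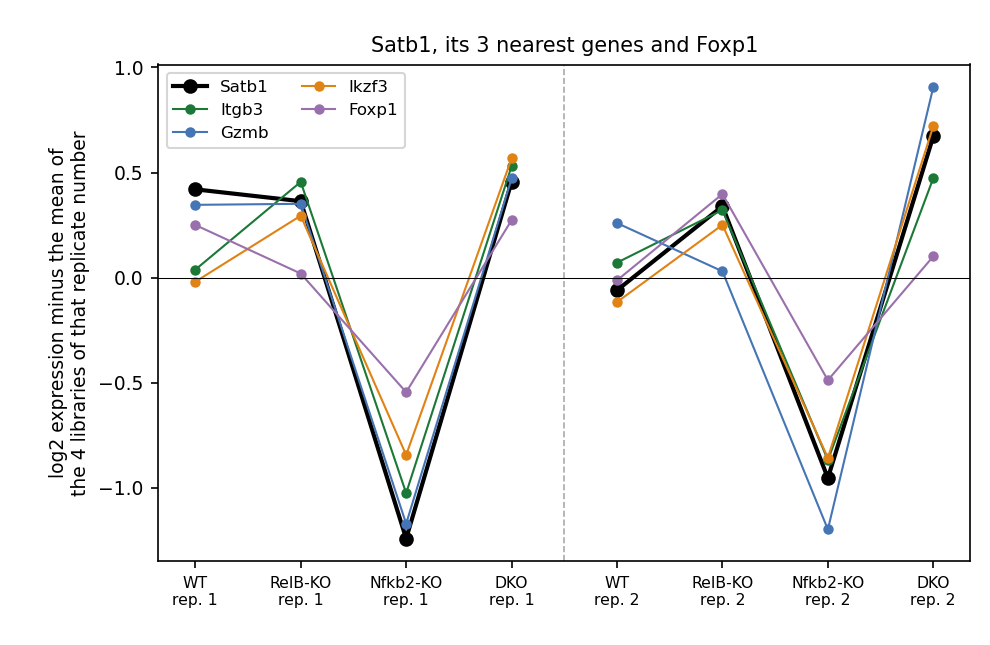
Log2 expression of Satb1, its 3 nearest genes and Foxp1 in each library, minus the mean of the 4 libraries with the same replicate number, with libraries on the x axis and replicates apart. All 5 genes are lowest in Nfkb2-KO in both replicates, and Foxp1 has the smallest step.

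Markers of other cells are given beside these differences, for comparison between libraries. The un-logged sum of 7 B cell markers lay between 166 and 238 in the 8 libraries, with 212 and 223 in Nfkb2-KO. The same sum lay between 188 and 271 for the myeloid and dendritic markers, between 260 and 312 for the CD8 T and NK markers, and between 5.85 and 6.44 for Alas2, the one erythroid marker above 0. Blk, a B cell kinase, was called lower in DKO than in Nfkb2-KO (-0.27 ± 0.03, adjusted p = 0.0298), at levels between 3.30 and 3.60, and higher in Nfkb2-KO than in WT with the block (0.21, adjusted p = 0.0244). The sum of 4 stroma markers, of which Cdh5 was at 0, lay at 987 and 1052 in Nfkb2-KO and between 1131 and 1445 in the other 6 libraries. Pecam1, the member with the highest level, stood at 9.85 and 9.95 in Nfkb2-KO and at 10.44 and 10.23 in WT, and was not called. The members Col1a1 and Col1a2 did not follow the sum. In Nfkb2-KO they stood at 4.66 and 4.88 and at 5.18 and 5.11, in each case between the values of the WT replicates. The part of such cells in the results was not tested.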

How the data were processed

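RNA of sorted, stimulated mouse Treg cells was sequenced from TruSeq libraries, with 2 libraries in each of 4 genotypes, at a stated 30 M reads each. The submitters' processing notes name STAR, mm10 and DESeq2 1.10.1 without roles, and the counting program, annotation, strand and batch method are not given in the sources used here. The deposited log2 values are called batch-corrected log2 RPKM, per the file headers, but un-logged they sum to 18.2 to 19.7 M per library. The depth behind each value is therefore unknown, and fold changes of weakly expressed genes may be too small. Log2 fold changes and adjusted p-values deposited by the authors are given as theirs, and 8 columns of z-scores were not used.

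Of 22432 rows, 6247 were 0 in all libraries, 1 had a blank cell and 25 had symbols turned into dates. Genes whose un-logged values averaged 1 or more, 13797 in all, were tested with limma 3.58.1 in R 4.3.3. The planned model had genotype alone, all 8 libraries and empirical Bayes with a mean-variance trend, leaving 4 residual degrees of freedom, and p-values were adjusted by Benjamini-Hochberg over all genes in each contrast. The alternative with replicate number as a block left 3. Replicate differences correlated across genes at 0.812 to 0.887 in the 6 pairs of genotypes, which is the check that the numbers of the labels pair the libraries. The fits were tested on simulated data. Genes of each list were named if called in any fit, up to 4 per comparison by size, with up to 2 that were not called; some genes counted in the lists are not reported here by name. Alternatives were no filter, pseudocount 1, quantile scaling, no trend, only the genotypes compared, each library left out, and the authors' own p-values. Loci are from GENCODE vM21, and protein sequences were not used here. Members and lists were chosen with earlier results of these data known.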

Additional observations from a re-analysis of the deposited data

Results flagged for a closer look

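The Satb1 difference between cells with and without the RelB deletion was not the same in Nfkb2-deleted and Nfkb2-intact cells, with the replicate block. The difference between the DKO minus Nfkb2-KO and the RelB-KO minus WT effects was 1.49 on the log2 scale (SE 0.22, limma with the replicate block, adjusted p = 0.0356), from effects of 1.66 and 0.17. In both replicate numbers Satb1 was higher in DKO than in Nfkb2-KO, by 1.70 and 1.63. Without the block the adjusted p was 0.470, and no other of the 9 genes passed this test in either fit. Over the 8 fits with the block that left out 1 library the Satb1 value lay between 1.17 and 1.81. In most of them the call was lost, as given above. The remaining Nfkb2 RNA was higher in DKO than in Nfkb2-KO by 0.80 (limma with the replicate block, adjusted p = 0.0379), and its part in this value was not tested.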

How the results depend on the processing

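Of the 63 differences (9 genes, 7 contrasts), 62 kept their direction and call without the mean-variance trend, 63 without the filter on low values, 54 of 54 with only the compared genotypes fitted, 62 with pseudocount 1, 60 with quantile scaling and 53 with the replicate block. The other 10 were newly called with the block. Every genotype has a library of each replicate number, so the block leaves each difference unchanged and alters only its SE and p-value. The trend, the filter and the choice of genotypes also leave each difference as it is. A kept direction is therefore no check in those fits. With it 3 genes were called in Nfkb2-KO minus WT and 3 in DKO minus Nfkb2-KO, 4 in Nfkb2-KO minus RelB-KO and 1 in the interaction. The authors' p-values called 5 in Nfkb2-KO minus WT. Without the trend DKO minus Nfkb2-KO had 0 calls (Satb1, adjusted p = 0.0669), and Nfkb2-KO minus RelB-KO had 1 with pseudocount 1 and 1 with quantile scaling. Quantile scaling turned the sign of Tcf7 in Nfkb2-KO minus WT (-0.033) and in the interaction (0.013). The shares of all genes called without the trend, with pseudocount 1 and with quantile scaling are not given here. The cause of these changes was not tested.

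Leaving out 1 library, with and without the block, gave 0 to 4 called genes in Nfkb2-KO minus WT, 0 to 3 in DKO minus Nfkb2-KO, 0 to 4 in Nfkb2-KO minus RelB-KO and 0 to 1 in the interaction. Where a genotype is left with 1 library, that library is assumed to vary like the others. The sign turned in at least 1 of the 16 such fits for 27 of the 63 differences, none of which was called in the planned model or with the block. For RelB-KO minus WT these ranges were -0.52 to 0.47 for Bach2, -0.077 to 0.071 for Foxo1, -0.15 to 0.042 for Foxo3, -0.16 to 0.34 for Foxp1, -0.15 to 0.20 for Klf3, -0.52 to 0.34 for Lef1 and -0.18 to 0.53 for Satb1. For Nfkb2-KO minus WT they were -0.71 to 0.050 for Bach2 and -0.15 to 0.16 for Tcf7. For DKO minus WT they were -0.51 to 0.24 for Bach2, -0.16 to 0.062 for Foxo1, -0.13 to 0.26 for Foxp1 and -0.21 to 0.19 for Lef1. DKO minus Nfkb2-KO gave -0.019 to 0.40 for Bach2, -0.076 to 0.19 for Foxo3 and -0.16 to 0.37 for Klf3. DKO minus RelB-KO gave -0.61 to 0.39 for Bach2, -0.16 to 0.065 for Foxo1, -0.27 to 0.23 for Foxp1, -0.35 to 0.51 for Lef1 and -0.26 to 0.21 for Tcf7. Nfkb2-KO minus RelB-KO gave -0.80 to 0.19 for Bach2 and -0.85 to 0.011 for Lef1. The interaction gave -0.28 to 0.71 for Bach2, -0.021 to 0.25 for Foxo3, -0.19 to 0.34 for Klf3 and -0.27 to 0.20 for Tcf7. With 2 libraries per genotype and depth unknown, no difference of Tcf7, Bach2, Foxo1 or Foxo3 was called with or without the block.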
